A study of Caenorhabditis elegans with 12 samples.

Results

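The genes described here are the lysozymes and saposin-like proteins of *Caenorhabditis elegans*, taken as every gene whose symbol begins with *lys-*, *ilys-* or *spp-* and that had a count above 0 in at least 3 of the 12 libraries. Of 18019 genes with counts in that many libraries, 35 belonged to the family, namely 9 *lys*, 4 *ilys* and 22 *spp* genes. Another 4 genes with such symbols fell outside the rule. *ilys-1*, *ilys-6* and *lys-9* had 0 counts in all 12 libraries, and *spp-21*, just outside the limit, had 4 counts over 2 libraries, whereas *spp-9*, *spp-11* and *spp-20*, among the lowest inside it, had 15, 15 and 14 counts over 6 libraries each. RNA was taken from whole L4 larvae in 4 groups of 3 biological replicates. These were *mir-71(n4115)* deletion animals (strain MT12993) on sodium azide, wild-type N2 animals on sodium azide, *mir-71(n4115)* animals on water and wild-type animals on water. Sodium azide inhibits complex IV of the mitochondrial respiratory chain, and the sequencing methods state no dose. The comparisons ask how azide stress alters transcript levels, how loss of the microRNA miR-71 alters them, and whether the azide effect differs between genotypes. Mature miR-71 is not measured by poly(A) libraries, so the labels of the deletion could not be checked here, and the mutant is represented by a single strain.

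Lysozymes cut the peptidoglycan of bacterial cell walls. In *C. elegans* the *lys* genes encode lysozymes of the type found in protists such as *Entamoeba*, and the *ilys* genes encode the invertebrate type. The *spp* genes encode saposin-like proteins, small helical proteins held by disulfide bonds that bind or permeabilise membranes. Several of them, such as SPP-1 and SPP-5, form pores in bacterial membranes and are called caenopores, while SPP-10 resembles prosaposin, the precursor of the lysosomal activators of sphingolipid breakdown. Most members are made in the intestine, where they serve both the digestion of the bacteria that the animal eats and its defence against pathogens.

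Libraries held between 16828108 and 23937993 gene counts. In a principal component analysis of all tested genes, the 3 wild-type libraries on azide stood apart from the other 9 on the first component (56.5% of the variance), and replicate 3 of *mir-71(n4115)* on azide lay farthest from the rest on the second (16.1%). Markers of developmental stage moved with the groups. The summed level of 8 yolk and adult collagen genes (*vit-1* to *vit-6*, *col-7* and *col-19*) was 268 to 2295 CPM (counts scaled for library depth) in *mir-71(n4115)* on azide and 36988 to 47099 CPM in wild type on azide, against 2380 to 2791 CPM in *mir-71(n4115)* on water and 4476 to 6388 CPM in wild type on water. The 14 germline and oocyte genes summed to 1806 to 3599 CPM in *mir-71(n4115)* on azide and 6337 to 6682 CPM in wild type on azide, against 1313 to 2027 CPM in *mir-71(n4115)* on water and 1645 to 2458 CPM in wild type on water. The 13 genes of the molting cycle summed to 2999 to 4302 CPM in *mir-71(n4115)* on azide and 874 to 926 CPM in wild type on azide, against 3870 to 4983 CPM in *mir-71(n4115)* on water and 4565 to 6014 CPM in wild type on water. All members of these lists had counts. The part of developmental stage in the results on lysozymes and saposin-like genes was not tested.

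The 15 intestinal markers were all present, and their summed level was 2971 to 4253 CPM in *mir-71(n4115)* on azide and 3719 to 3798 CPM in wild type on azide, against 3816 to 3973 CPM in *mir-71(n4115)* on water and 4219 to 4525 CPM in wild type on water. Of these 15 markers, 3 were called lower and 0 higher on azide in *mir-71(n4115)*, at a median of -0.18 on the log2 scale, and in wild type 7 were lower and 0 higher, with a median of -0.37. On azide in wild type, 7 of 11 tested pharynx genes (median -1.42), 8 of 9 hypodermis genes (median -2.43) and 13 of 16 neuronal genes (median -0.74) were lower, whereas in *mir-71(n4115)* 0, 4 and 1 of them were lower and 1, 1 and 0 higher (medians 0.07, 0.06 and -0.19). Other lists did not fall on azide in wild type. There 0 of 12 body wall muscle genes were called (median 0.10), and 1 of 3 coelomocyte genes (median 0.42) and 12 of 14 germline and oocyte genes (median 2.50) were higher. In *mir-71(n4115)* 1, 0 and 0 of them were lower and 0, 0 and 11 higher (medians -0.17, 0.32 and 1.30). Because RNA came from whole animals, fewer cells of a type and less RNA per cell cannot be told apart in any of the values below.

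The most abundant member per coding length was *ilys-5*, an invertebrate-type lysozyme on chromosome X (6533549 to 6536777, minus strand, build WBcel235). It averaged 2898 FPKM over the 12 libraries and ranked 81 of 20212 genes. The FPKM values, depth-scaled fragment counts divided by a coding length as deposited, allow genes to be set side by side. Next came *spp-17* at 1889 FPKM, *spp-14* at 1754 FPKM, the caenopore gene *spp-5* at 1721 FPKM and the lysozyme gene *lys-4* at 948 FPKM. The order changed with azide. In *mir-71(n4115)* on azide, *spp-17* stood at 1791 ± 357 FPKM and *spp-14* at 1606 ± 185 FPKM, ahead of *ilys-5* at 1235 ± 223 FPKM and *spp-5* at 1119 ± 42.1 FPKM (SD, n = 3), and neighbours in this order overlapped within 1 SD. In wild type on azide, *spp-5* (1782 ± 110.1 FPKM), *spp-14* (1684 ± 145 FPKM), *ilys-5* (1616 ± 90.8 FPKM) and *spp-17* (1513 ± 66.9 FPKM) also overlapped with their neighbours within 1 SD. On water *ilys-5* stood alone at 3886 ± 174 FPKM in *mir-71(n4115)* and 4855 ± 404 FPKM in wild type. At the low end, *lys-10* averaged 0.319 FPKM and *spp-11*, the lowest member, 0.0483 FPKM.

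**Figure D1:**
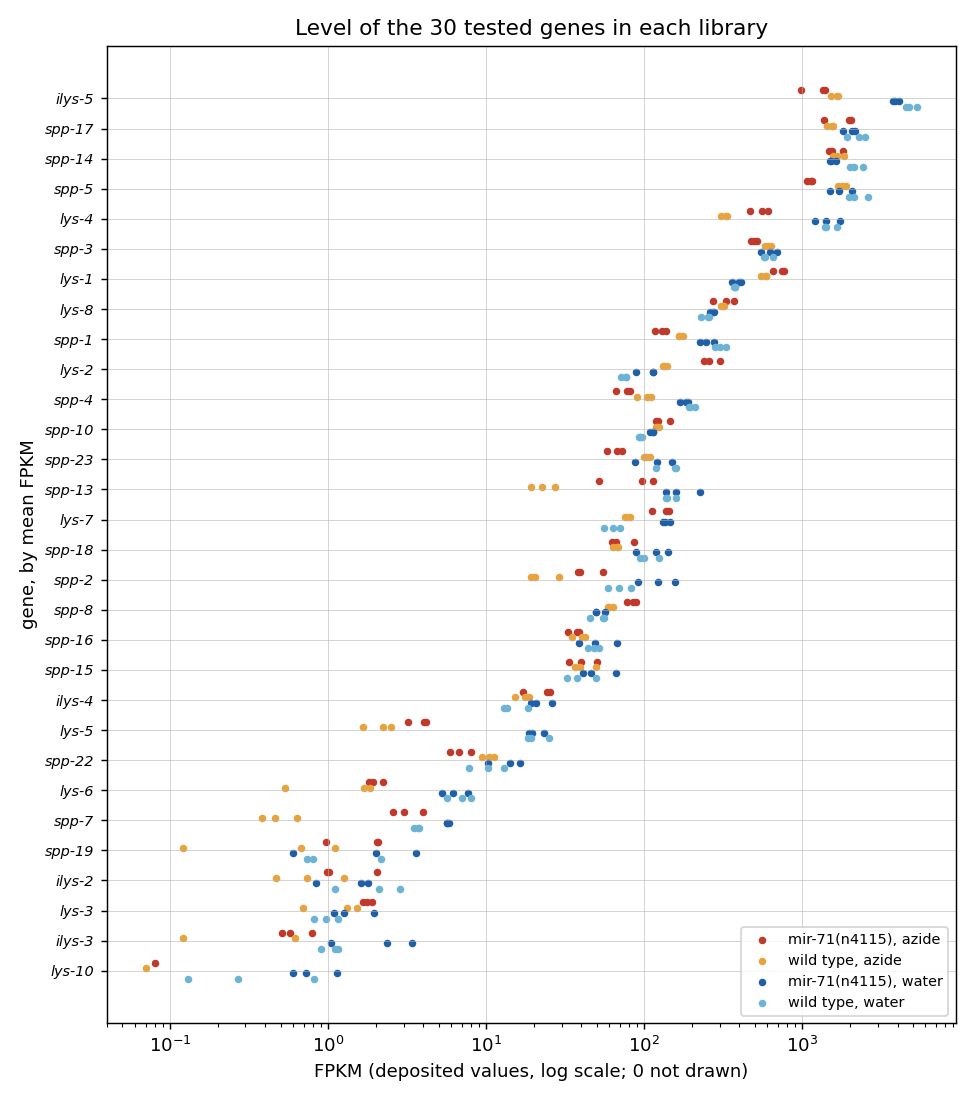
Deposited FPKM (x axis, log scale) of the 30 tested lysozyme and saposin-like genes (y axis, ordered by their mean) in each of the 12 libraries, 1 point per library, coloured by group. Levels run from means of 2898 FPKM for *ilys-5* to 0.319 FPKM for *lys-10*, and the azide libraries of *ilys-5*, *lys-4*, *lys-5* and *spp-2* lie to the left of the water libraries.

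The family as a whole took 0.397% to 0.431% of counts in *mir-71(n4115)* on azide and 0.385% to 0.420% in wild type on azide, against 0.545% to 0.623% in *mir-71(n4115)* on water and 0.622% to 0.691% in wild type on water. Azide libraries did not overlap with water libraries in either genotype. The *ilys* share, nearly all from *ilys-5*, was 0.0424% to 0.0594% in *mir-71(n4115)* on azide and 0.0643% to 0.0716% in wild type on azide, against 0.158% to 0.173% in *mir-71(n4115)* on water and 0.191% to 0.224% in wild type on water. The *lys* share behaved differently between the genotypes, at 0.152% to 0.169% in *mir-71(n4115)* on azide and 0.155% to 0.194% on water, ranges that overlap, but at 0.113% to 0.121% in wild type on azide and 0.158% to 0.175% on water, ranges that do not. This difference between genotypes in the summed share was not tested. The 5 members with the most counts (*ilys-5*, *lys-4*, *spp-17*, *spp-14* and *spp-5*) held 51.7% to 61.5% of the family's counts in the azide libraries and 72.1% to 79.2% in the water libraries.

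**Figure D2:**
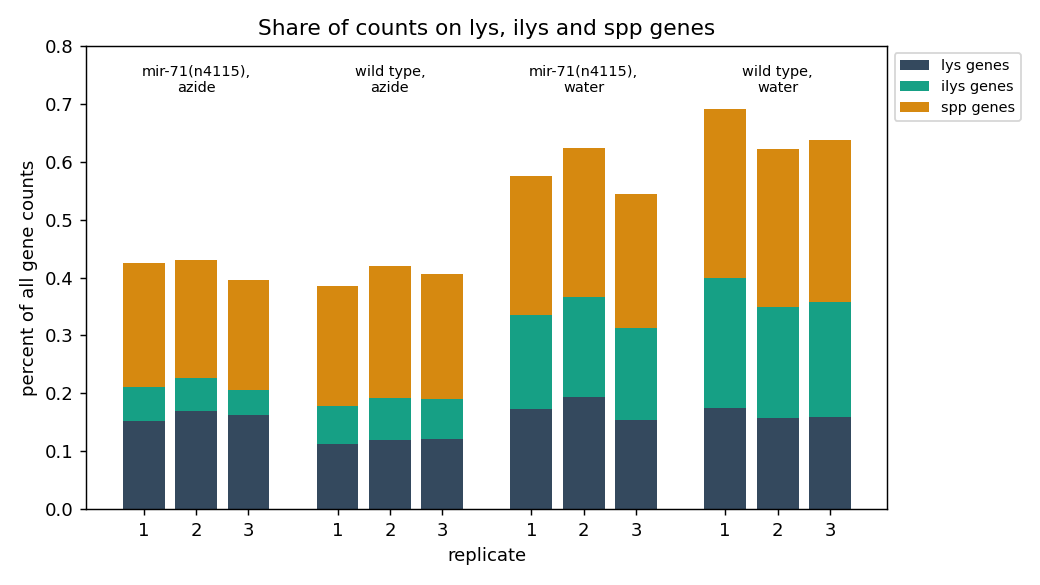
Percent of all gene counts (y axis, from 0) on *lys*, *ilys* and *spp* genes in each library (x axis, replicates by group), stacked. The 6 azide libraries reach at most 0.431% and the 6 water libraries at least 0.545%, and the *ilys* layer is the one that shrinks most.

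On azide, most members with a call were lower than on water, in both genotypes, while the neighbouring lysozyme genes *lys-1* and *lys-2* rose. Of the 30 members that passed the filter on low counts, 17 fell and 3 rose on azide in *mir-71(n4115)*, where 11.6% of all 15048 genes tested fell and 12.3% rose (edgeR quasi-likelihood test, Benjamini-Hochberg adjusted p under 0.05). In wild type, 16 fell and 3 rose, where 27.1% of all genes fell and 27.5% rose. The median log2 fold change over the members was -0.69 in *mir-71(n4115)* and -0.57 in wild type, beside 0.03 and -0.05 over all genes tested. The azide contrasts of the genotypes share no library, and 14 members, 46.7% of those tested, fell in both, as did 9.55% of all genes. With libraries scaled so that the intestinal markers stay level, which moves the median of all genes up by 0.27 in *mir-71(n4115)* and 0.34 in wild type, the calls were 9 lower and 3 higher in *mir-71(n4115)* and 10 lower and 6 higher in wild type. Of all 15048 genes, 573 were then lower and 2063 higher in *mir-71(n4115)*, and 2069 lower and 5090 higher in wild type. With the ribosomal protein genes held level, which moves that median up by 0.26 in wild type, the members' calls were 15 lower and 3 higher in *mir-71(n4115)* and 11 lower and 6 higher in wild type. Of all genes, 1015 were then lower and 1883 higher in *mir-71(n4115)*, and 2508 lower and 5411 higher in wild type. Relative to the median of all genes, the members' median lay at -0.73 to -0.69 in *mir-71(n4115)* and at -0.55 to -0.52 in wild type under the 5 scalings tried. A change of scaling shifts all genes nearly alike, so this relative value could hardly move and does not test the falls.

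**Figure D3:**
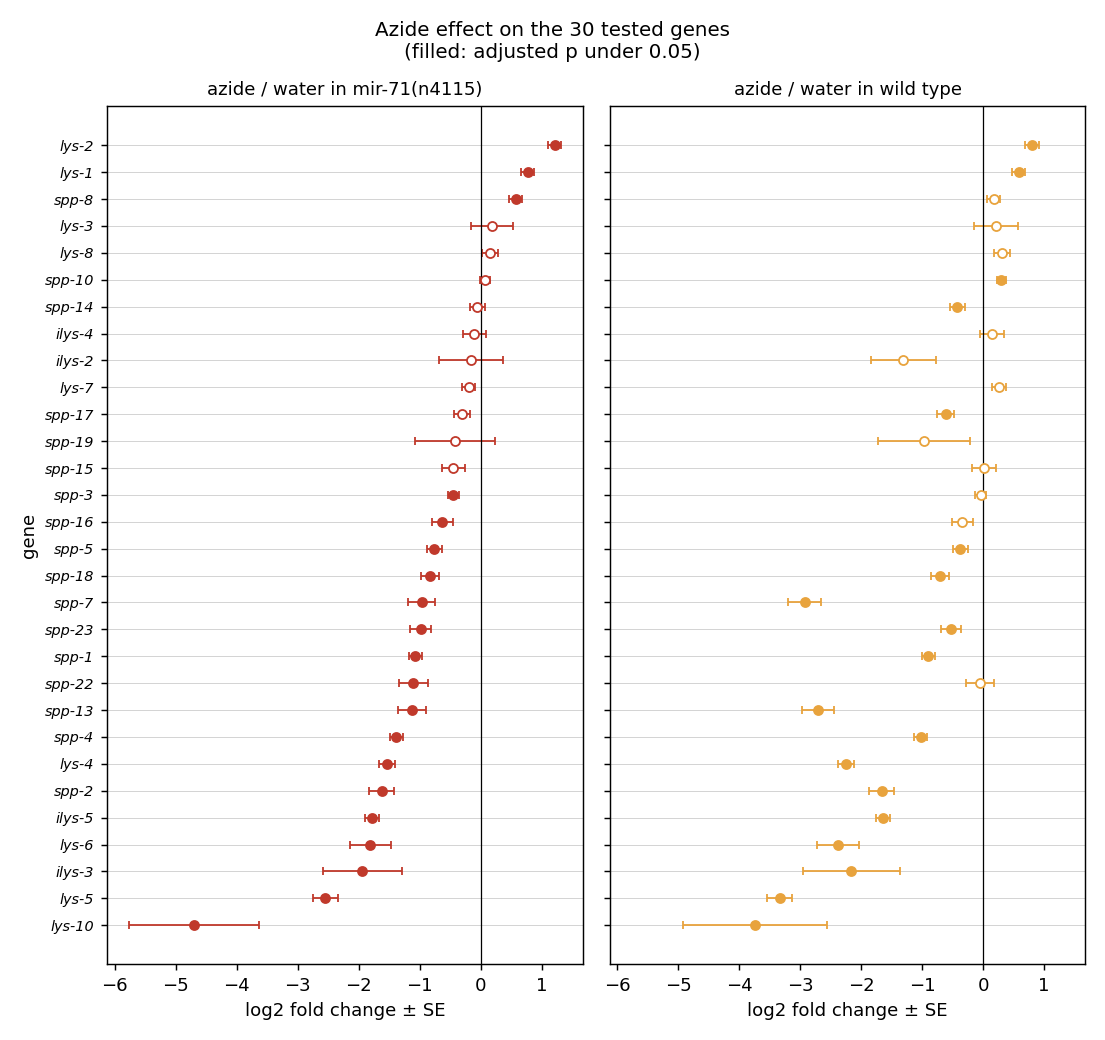
Azide against water log2 fold change with its SE (x axes) for the 30 tested genes (y axis, ordered by the value in the deletion), in *mir-71(n4115)* on the left and wild type on the right, with filled points for adjusted p under 0.05. Most filled points lie below 0 in both panels, *lys-1* and *lys-2* lie above 0 in both, and *spp-7* and *spp-13* lie farther below 0 in wild type.

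Among the protist-type lysozymes, azide falls were called for the sparsely counted *lys-10*, described below, and for a cluster of 3 neighbours. These neighbours, on the minus strand of chromosome IV, are *lys-4* (11621496 to 11623098), *lys-5* (11624296 to 11625574) and *lys-6* (11626962 to 11627935). They are separated by 1197 and 1387 bases with 0 other genes of the table between them. Similar neighbours may share reads, so how counts were divided among them is uncertain. *lys-4* stood at 299.7, 361 and 292 CPM in *mir-71(n4115)* on azide and 205, 229 and 213 CPM in wild type on azide, against 915, 1061 and 780.1 CPM in *mir-71(n4115)* on water and 1139, 959.9 and 979 CPM in wild type on water. Every azide library was below every water library. The log2 fold change on azide was -1.53 ± 0.13 (SE) in *mir-71(n4115)* (adjusted p = 4.32e-06) and -2.25 ± 0.13 in wild type (adjusted p = 8.33e-08). *lys-5*, a lysozyme gene known for induction during infection with *Staphylococcus aureus*, showed the deepest falls among members above 5 CPM. It stood at 2.20, 2.50 and 2.00 CPM in *mir-71(n4115)* on azide and 1.13, 1.71 and 1.46 CPM in wild type on azide, against 12.2, 14.3 and 12.7 CPM in *mir-71(n4115)* on water and 17.3, 13.2 and 12.9 CPM in wild type on water. Its log2 fold change was -2.54 ± 0.20 in *mir-71(n4115)* (adjusted p = 2.2e-06) and -3.34 ± 0.21 in wild type (adjusted p = 1.43e-07). *lys-6*, which averaged at most 4.75 CPM in any group, fell as well, with log2 fold changes of -1.81 in *mir-71(n4115)* and -2.38 in wild type.

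The cluster of *lys-1* (10277908 to 10278998, plus strand), *lys-2* (10280368 to 10281444, minus strand) and *lys-3* (10282215 to 10283444, minus strand) on chromosome V went the other way. *lys-1* stood at 491, 616 and 666 CPM in *mir-71(n4115)* on azide and 513, 565 and 533 CPM in wild type on azide, against 361, 352 and 324 CPM in *mir-71(n4115)* on water and 359.8, 353 and 361 CPM in wild type on water. The log2 fold change was 0.77 ± 0.11 in *mir-71(n4115)* (adjusted p = 0.00031) and 0.59 ± 0.11 in wild type (adjusted p = 0.000487), with no overlap between azide and water libraries. *lys-2* stood at 181, 233 and 194 CPM in *mir-71(n4115)* on azide and 115, 119.8 and 118 CPM in wild type on azide, against 96.4, 90.9 and 75.3 CPM in *mir-71(n4115)* on water and 68.9, 68.4 and 64.9 CPM in wild type on water. It had the largest rise of the family, 1.21 ± 0.11 in *mir-71(n4115)* (adjusted p = 1.02e-05) and 0.80 ± 0.11 in wild type (adjusted p = 5.57e-05). Both genes kept these calls under all 20 alternatives. *lys-3*, 770 bases from *lys-2*, averaged 0.954 to 1.46 CPM over the groups and passed no test.

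*lys-7*, an antimicrobial lysozyme gene of the intestine that the FOXO factor DAF-16 is known to activate, passed no azide test. It stood at 103, 88.1 and 113 CPM in *mir-71(n4115)* on azide and 67.8, 68.7 and 69.5 CPM in wild type on azide, against 114, 109 and 124 CPM in *mir-71(n4115)* on water and 63.3, 50.7 and 58.1 CPM in wild type on water. The deletion libraries were above all wild-type libraries of the same medium, while azide and water libraries overlapped within the deletion. In wild type the 3 azide libraries were above the 3 water libraries, with a log2 fold change of 0.26 and an adjusted p of 0.0567 (edgeR), and this rise was called under 10 of the 20 alternatives. *lys-8*, an abundant lysozyme gene on chromosome II, ranged between 197 and 308 CPM over the 12 libraries and passed none of the 5 tests. In wild type its azide libraries were above its water libraries, with a log2 fold change of 0.30 and an adjusted p of 0.0669 (edgeR). That rise was called under 5 of the 20 alternatives. *lys-10* had 1 count over the 3 *mir-71(n4115)* libraries on azide against 38 on water, and 1 count over the wild-type libraries on azide against 18 on water. The depth-scaled ratio of azide to water was 0.0281 in *mir-71(n4115)* (95% interval 0.000695 to 0.167) and 0.0562 in wild type (0.00135 to 0.356), intervals from an exact binomial calculation that cover counting error only. *lys-10* was called lower in both genotypes, but in wild type the call was lost without wild-type azide replicate 2 or 3 or water replicate 1 (adjusted p = 0.0509, 0.0595 and 0.0937).

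The invertebrate-type lysozyme gene *ilys-5* accounted for the largest loss of counts of any member. It stood at 488, 523 and 397 CPM in *mir-71(n4115)* on azide and 661, 749.7 and 697 CPM in wild type on azide, against 1632, 1634 and 1581 CPM in *mir-71(n4115)* on water and 2377, 2031 and 2152 CPM in wild type on water. The 4 groups did not overlap. On azide *ilys-5* was 3.44-fold lower in *mir-71(n4115)* (log2 fold change -1.78 ± 0.11, adjusted p = 3.84e-07) and 3.11-fold lower in wild type, and both calls held under all 20 alternatives. *ilys-3*, which in *C. elegans* acts in the pharynx and intestine against Gram-positive bacteria, was near the limit of detection, with 4, 7 and 4 counts in *mir-71(n4115)* on azide and 1, 5 and 0 counts in wild type on azide, against 10, 34 and 19 counts in *mir-71(n4115)* on water and 8, 10 and 11 counts in wild type on water. It was called lower on azide in both genotypes. In *mir-71(n4115)* that call, with an adjusted p of 0.0444, was lost in 9 of the 12 fits that leave out 1 library (0.0545 to 0.169), and in wild type in 5 of them (0.0509 to 0.113). *ilys-2*, 2282 bases from *ilys-3*, averaged 0.355 to 0.903 CPM, *ilys-4* averaged 7.72 to 10.4 CPM, and neither passed a test.

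On chromosome X, 5 saposin-like genes lie next to each other, in the order *spp-3*, *spp-2*, *spp-6*, *spp-4* and *spp-5* (7315005 to 7320353), all on the minus strand except *spp-6*. *spp-5*, a caenopore gene, stood at 299, 331 and 323 CPM in *mir-71(n4115)* on azide and 543, 626 and 559 CPM in wild type on azide, against 535, 612 and 467 CPM in *mir-71(n4115)* on water and 863, 660.3 and 721 CPM in wild type on water. It was 1.69-fold lower on azide in *mir-71(n4115)* and 1.30-fold lower in wild type, where the call was lost without azide replicate 1 or 3 or water replicate 1 (adjusted p = 0.0711, 0.0599 and 0.0786). With the intestinal markers held level, the log2 fold change of *spp-5* was -0.47 in *mir-71(n4115)* (adjusted p = 0.0513) and -0.03 in wild type (0.906), and with the ribosomal protein genes held level the wild-type value was -0.12 (0.464). *spp-4* stood at 20.5, 23.6 and 19.9 CPM in *mir-71(n4115)* on azide and 29.1, 36.5 and 32.4 CPM in wild type on azide, against 59.4, 54.6 and 52.9 CPM in *mir-71(n4115)* on water and 63.4, 65.1 and 70.2 CPM in wild type on water. Its azide fall was -1.38 ± 0.11 in *mir-71(n4115)* (adjusted p = 2.38e-06) and 2.03-fold in wild type, with no overlap of libraries. *spp-2* stood at 14.4, 11.1 and 11.9 CPM in *mir-71(n4115)* on azide and 6.29, 6.85 and 9.18 CPM in wild type on azide, against 29.1, 47.3 and 39.0 CPM in *mir-71(n4115)* on water and 27.5, 19.9 and 23.6 CPM in wild type on water. It fell by 1.62 ± 0.20 on the log2 scale in *mir-71(n4115)* (adjusted p = 0.000113) and by 1.67 ± 0.20 in wild type (adjusted p = 2.33e-05).

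The first gene of that cluster, *spp-3*, had the smallest azide effect of its 4 tested genes in either genotype. It stood at 132, 139 and 138 CPM in *mir-71(n4115)* on azide and 182, 203 and 184 CPM in wild type on azide, against 192, 199 and 167 CPM in *mir-71(n4115)* on water and 209.6, 185 and 191 CPM in wild type on water. It was called lower on azide in *mir-71(n4115)*, by 1.36-fold, while in wild type the libraries overlapped and the log2 fold change was -0.04 with an adjusted p of 0.719 (edgeR). With the intestinal markers held level, the value in *mir-71(n4115)* was -0.17 (adjusted p = 0.471). The difference between the main effects was -0.41 ± 0.13 with an adjusted p of 0.0622 (edgeR interaction), and it was called under 5 of the 19 alternatives. *spp-6*, in the middle of the cluster, had 16 counts in all 12 libraries together and was not tested. The 4 tested genes of the cluster, 597 to 1238 bases from their neighbours, thus differed in azide effect from -0.04 for *spp-3* to -1.67 for *spp-2* in wild type.

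*spp-1*, on chromosome III (10355142 to 10355517, minus strand), encodes a caenopore of the intestine that permeabilises bacterial membranes. It stood at 32.1, 41.7 and 40.9 CPM in *mir-71(n4115)* on azide and 56.5, 60.6 and 54.5 CPM in wild type on azide, against 74.2, 85.9 and 80.4 CPM in *mir-71(n4115)* on water and 106, 97.96 and 116 CPM in wild type on water. It was 2.10-fold lower on azide in *mir-71(n4115)* and 1.86-fold lower in wild type, and the 4 groups did not overlap. *spp-18* stood at 27.6, 23.4 and 22.97 CPM in *mir-71(n4115)* on azide and 25.3, 27.7 and 25.8 CPM in wild type on azide, against 34.4, 51.1 and 45.6 CPM in *mir-71(n4115)* on water and 50.03, 40.3 and 39.0 CPM in wild type on water. All its azide libraries were below its water libraries, and both falls, 1.77-fold in *mir-71(n4115)* and 1.64-fold in wild type, were called. With the intestinal markers held level they were lost, at log2 fold changes of -0.56 (adjusted p = 0.0804) and -0.37 (0.17). *spp-16* stood at 9.93, 10.6 and 9.74 CPM in *mir-71(n4115)* on azide and 11.1, 13.1 and 12.9 CPM in wild type on azide, against 15.2, 19.6 and 11.9 CPM in *mir-71(n4115)* on water and 16.76, 14.3 and 15.9 CPM in wild type on water. It was called in *mir-71(n4115)* (1.54-fold lower), a call lost without water replicate 2 of that genotype (adjusted p = 0.0882), in the compared groups alone (0.092) and with the intestinal markers (log2 fold change -0.31, adjusted p = 0.223) or the ribosomal protein genes held level (-0.54, adjusted p = 0.0778), and in wild type the adjusted p was 0.104 (edgeR).

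The neighbours *spp-17* (1016410 to 1017131) and *spp-23* (1018843 to 1019157) lie on the plus strand of chromosome I, 1711 bases apart, and both fell on azide in wild type. *spp-17* stood at 536, 574 and 419.9 CPM in *mir-71(n4115)* on azide and 502, 525 and 455 CPM in wild type on azide, against 690.0, 544 and 657 CPM in *mir-71(n4115)* on water and 648, 837 and 781 CPM in wild type on water. It was 1.53-fold lower in wild type, while in *mir-71(n4115)* the libraries overlapped and the adjusted p was 0.119 (edgeR). The wild-type call of *spp-17* was lost with the intestinal markers (log2 fold change -0.30, adjusted p = 0.347) or the ribosomal protein genes held level (-0.35, adjusted p = 0.0705). *spp-23* stood at 19.1, 19.6 and 17.7 CPM in *mir-71(n4115)* on azide and 32.8, 34.1 and 34.5 CPM in wild type on azide, against 27.8, 35.9 and 47.6 CPM in *mir-71(n4115)* on water and 39.7, 52.7 and 54.2 CPM in wild type on water. It was 1.97-fold lower in *mir-71(n4115)* and 1.45-fold lower in wild type, where the call was lost without water replicate 2 or 3 (adjusted p = 0.075 and 0.0771). With the intestinal markers held level, the log2 fold change of *spp-23* was -0.75 in *mir-71(n4115)* (adjusted p = 0.0789) and -0.22 in wild type (0.548), and with the ribosomal protein genes held level the wild-type value was -0.26 (0.222). *spp-22* stood at 2.54, 3.34 and 2.56 CPM in *mir-71(n4115)* on azide and 4.91, 4.47 and 5.08 CPM in wild type on azide, against 6.47, 7.01 and 4.65 CPM in *mir-71(n4115)* on water and 6.23, 3.77 and 4.98 CPM in wild type on water. It was 2.14-fold lower on azide in *mir-71(n4115)*, while the libraries of wild type overlapped. The difference between the azide effects on *spp-22* was -1.05 ± 0.33 with an adjusted p of 0.058 (edgeR interaction). It was called under 5 of the 19 alternatives.

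*spp-10*, the prosaposin-like gene and the longest member (coding length 1329 bases, 11 coding exons), lies 1089 bases before *spp-8* on chromosome IV. *spp-10* stood at 162, 146 and 158 CPM in *mir-71(n4115)* on azide and 163, 171 and 164 CPM in wild type on azide, against 147, 143 and 152 CPM in *mir-71(n4115)* on water and 137, 132 and 135 CPM in wild type on water. Its levels spanned only 132 to 171 CPM over the 12 libraries, and its rise on azide was called in wild type alone, at 0.30 ± 0.08 on the log2 scale (adjusted p = 0.00497). With upper-quartile scaling, which lowers the median of all genes by 0.15 in that comparison, the rise was 0.15 with an adjusted p of 0.126 (edgeR). *spp-8* stood at 90.5, 87.4 and 99.8 CPM in *mir-71(n4115)* on azide and 75.4, 80.9 and 71.8 CPM in wild type on azide, against 60.9, 57.3 and 68.5 CPM in *mir-71(n4115)* on water and 58.2, 70.7 and 73.2 CPM in wild type on water. Its rise was called in *mir-71(n4115)*, at 0.57 ± 0.11 (adjusted p = 0.00221), and in wild type the libraries overlapped. Neither gene was called for a difference between genotypes in the azide effect (adjusted p = 0.189 for *spp-10* and 0.104 for *spp-8*, edgeR).

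Azide effects that differed between genotypes were called for 3 of the 30 members, all with the higher value in *mir-71(n4115)*, where 6.67% of all genes were called in that direction and 3.8% in the other. The members' median difference was -0.07, beside 0.06 over all genes tested. *spp-7*, a saposin-like gene on chromosome IV (5412891 to 5415762, minus strand), stood at 2.45, 3.56 and 2.41 CPM in *mir-71(n4115)* on azide and 0.460, 0.386 and 0.618 CPM in wild type on azide, against 5.71, 5.26 and 5.54 CPM in *mir-71(n4115)* on water and 3.595, 3.92 and 3.89 CPM in wild type on water. It fell 1.95-fold on azide in *mir-71(n4115)*, against a log2 fold change of -2.93 ± 0.27 in wild type (adjusted p = 2.21e-06), a difference of 1.96 ± 0.35 (adjusted p = 0.00366). *spp-13*, on chromosome X (8417579 to 8418389, minus strand), stood at 30.8, 39.6 and 18.8 CPM in *mir-71(n4115)* on azide and 7.57, 9.00 and 10.4 CPM in wild type on azide, against 60.8, 81.4 and 52.5 CPM in *mir-71(n4115)* on water and 56.4, 63.8 and 56.2 CPM in wild type on water. The level in wild type on azide was the lowest of the 4 groups for both genes, with no overlap. The fall in *mir-71(n4115)* was lost with the intestinal markers held level for *spp-7* (log2 fold change -0.69, adjusted p = 0.104) and *spp-13* (-0.79, adjusted p = 0.0611).

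*spp-13* fell 2.18-fold on azide in *mir-71(n4115)*, against a log2 fold change of -2.71 ± 0.26 in wild type (adjusted p = 7.35e-06), a difference of 1.58 ± 0.34 (adjusted p = 0.0144). The difference for *lys-4* was 0.72 ± 0.18 (adjusted p = 0.0225), from the values given above, and it was lost without azide replicate 2 or water replicate 1 of *mir-71(n4115)* (adjusted p = 0.0529 and 0.056) or without azide replicate 1 or 3 or water replicate 1 of wild type (0.0643, 0.0559 and 0.0534). It was also lost with the intestinal markers (adjusted p = 0.174) or the ribosomal protein genes held level (0.122), and the difference for *spp-13* with the ribosomal protein genes held level (0.0608). In the same contrast, 11 of 13 molting-cycle genes were called higher and 0 lower (median 1.73), and 0 of 8 yolk and adult collagen genes higher and 6 lower (median -4.03). Without replicate 3 of *mir-71(n4115)* on azide, the library that stood apart, 3 members were called higher and 3 lower. Of all genes tested, 1610 were then called higher and 966 lower.

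**Figure D4:**
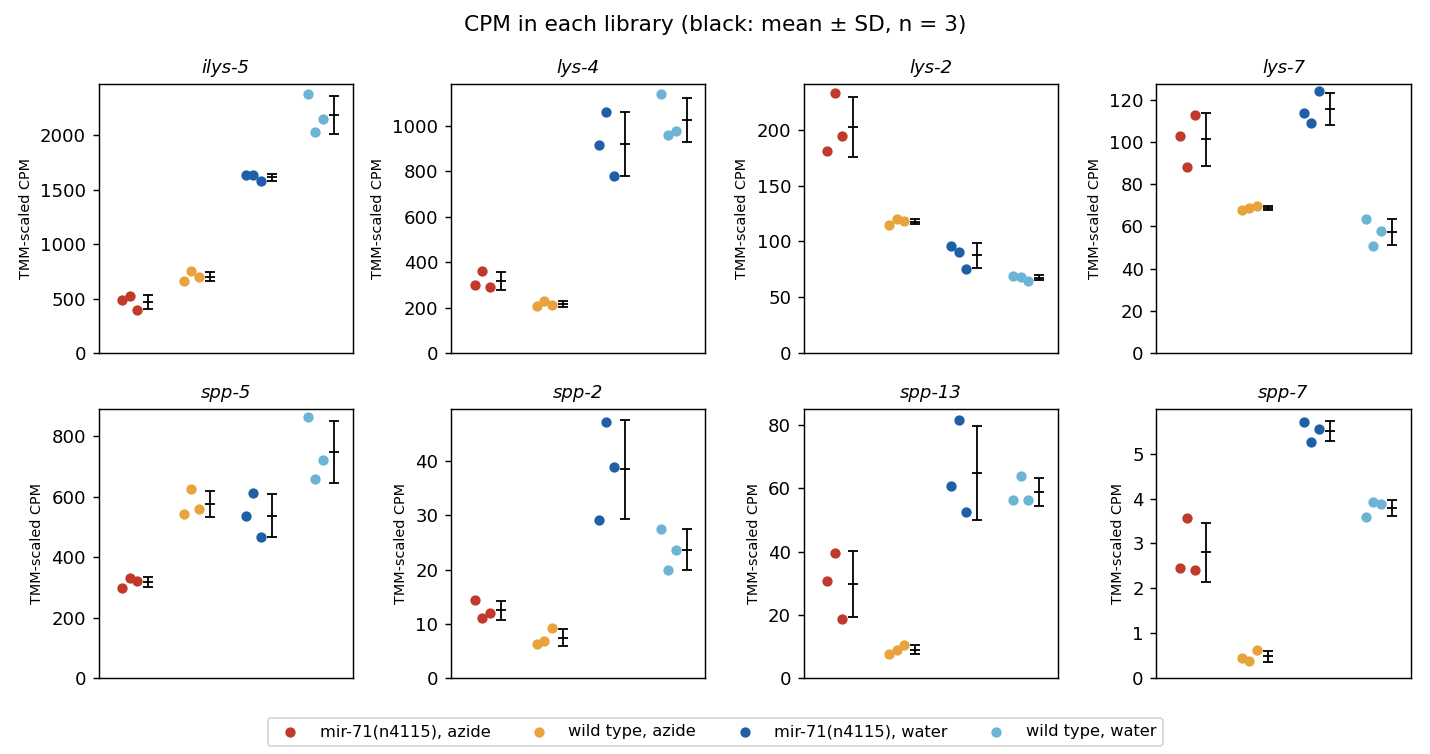
TMM-scaled CPM (y axes, each from 0) of 8 genes in each library, 1 panel per gene, with the groups from left to right as in the legend and the mean ± SD (n = 3) in black. *ilys-5* and *lys-4* are low in all 6 azide libraries, *lys-2* is highest in *mir-71(n4115)* on azide, *lys-7* is higher in *mir-71(n4115)* on either medium, and *spp-7* and *spp-13* are lowest in wild type on azide.

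With azide present, loss of miR-71 went with calls in both directions. Several *lys* genes, *spp-2*, *spp-7* and *spp-13* were higher in *mir-71(n4115)* than in wild type, and *spp-3*, *spp-4* and *spp-5* of the chromosome X cluster, *spp-1*, *spp-22*, *spp-23* and *ilys-5* were lower. Of the 30 members, 7 were higher and 7 lower, where 20.1% of all genes tested were higher and 18.7% lower, and the members' median log2 fold change was 0.09 beside 0.04 over all genes. By family, 4 *lys* genes were higher and 0 lower of 9, 0 *ilys* genes were higher and 1 lower of 4, and 3 *spp* genes were higher and 6 lower of 17. In this comparison 12 of 13 molting-cycle genes were higher (median 1.81) and all 8 yolk and adult collagen genes lower (median -5.07), while of 15 intestinal markers 1 was higher and 0 lower (median 0.01). Markers of other tissues moved too. Higher in *mir-71(n4115)* were 10 of 11 tested pharynx genes (median 1.91), 8 of 9 hypodermis genes (median 1.53) and 12 of 16 neuronal genes (median 0.47), and lower were 12 of 14 germline and oocyte genes (median -1.65) and 2 of 12 body wall muscle genes (median 0.19). Of 3 coelomocyte genes, 0 were called. The part of these tissues in the result was not tested. Without replicate 3 of *mir-71(n4115)* on azide, 7 members were higher and 8 lower, beside 3098 higher and 2916 lower of all genes tested.

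The largest rise was that of *spp-7*, 2.49 ± 0.27 on the log2 scale (adjusted p = 3.27e-05), a mean of 2.80 ± 0.653 CPM in *mir-71(n4115)* against 0.488 ± 0.118 CPM in wild type (SD, n = 3). *spp-13* followed at 1.73 ± 0.25 (adjusted p = 0.000422), with 29.7 ± 10.5 CPM against 8.98 ± 1.40 CPM. The lysozyme gene *lys-2* was 0.79 ± 0.11 higher (adjusted p = 0.000189), and its lowest deletion library, at 181 CPM, was above its highest wild-type library, at 119.8 CPM. *spp-2* was 0.74 ± 0.20 higher (adjusted p = 0.0123) and *lys-5* 0.65 ± 0.22 higher (adjusted p = 0.0326), but both calls were lost without some single libraries. That of *spp-2* was lost without azide replicate 1 or 2 of wild type (adjusted p = 0.055 and 0.0502). That of *lys-5* was lost without azide replicate 1 or 2 of *mir-71(n4115)* (0.0525 and 0.108) or azide replicate 1 or 3 of wild type (0.124 and 0.072), with the replicate number as a block (0.0511), in the compared groups alone (0.12) and with the intestinal markers held level (0.101). *lys-4* and *lys-7* were 1.47-fold and 1.48-fold higher, and the call of *lys-7* was lost with the intestinal markers held level (adjusted p = 0.0624).

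Among the members that were lower, *spp-5* fell most, by 0.86 ± 0.12 on the log2 scale (adjusted p = 0.000223), with a mean of 318 ± 16.9 CPM in *mir-71(n4115)* against 576 ± 44.1 CPM in wild type (SD, n = 3). *spp-23* was lower by a log2 fold change of -0.85 ± 0.17 (adjusted p = 0.00212) and *spp-22* by -0.77 ± 0.24 (adjusted p = 0.021). The *spp-22* call was lost without azide replicate 1 or 3 of wild type (adjusted p = 0.0542 and 0.0607) and with the ribosomal protein genes held level (0.0694). *spp-4* had a log2 fold change of -0.61 ± 0.11 (adjusted p = 0.000956) and *ilys-5* of -0.58 ± 0.11 (adjusted p = 0.00148). *spp-1* and *spp-3* were 1.49-fold and 1.39-fold lower. Within the chromosome X cluster, *spp-3*, *spp-4* and *spp-5* were thus lower in *mir-71(n4115)* and *spp-2*, which lies between *spp-3* and *spp-4*, was higher. The 16 members without a call had log2 fold changes between -0.29 and 1.19, the highest being the sparsely counted *ilys-3*. Among these 16, *spp-8* had a log2 fold change of 0.28 with an adjusted p of 0.0503 (edgeR). Its deletion libraries were above its wild-type libraries, and the rise was called under 6 of the 20 alternatives.

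**Figure D5:**
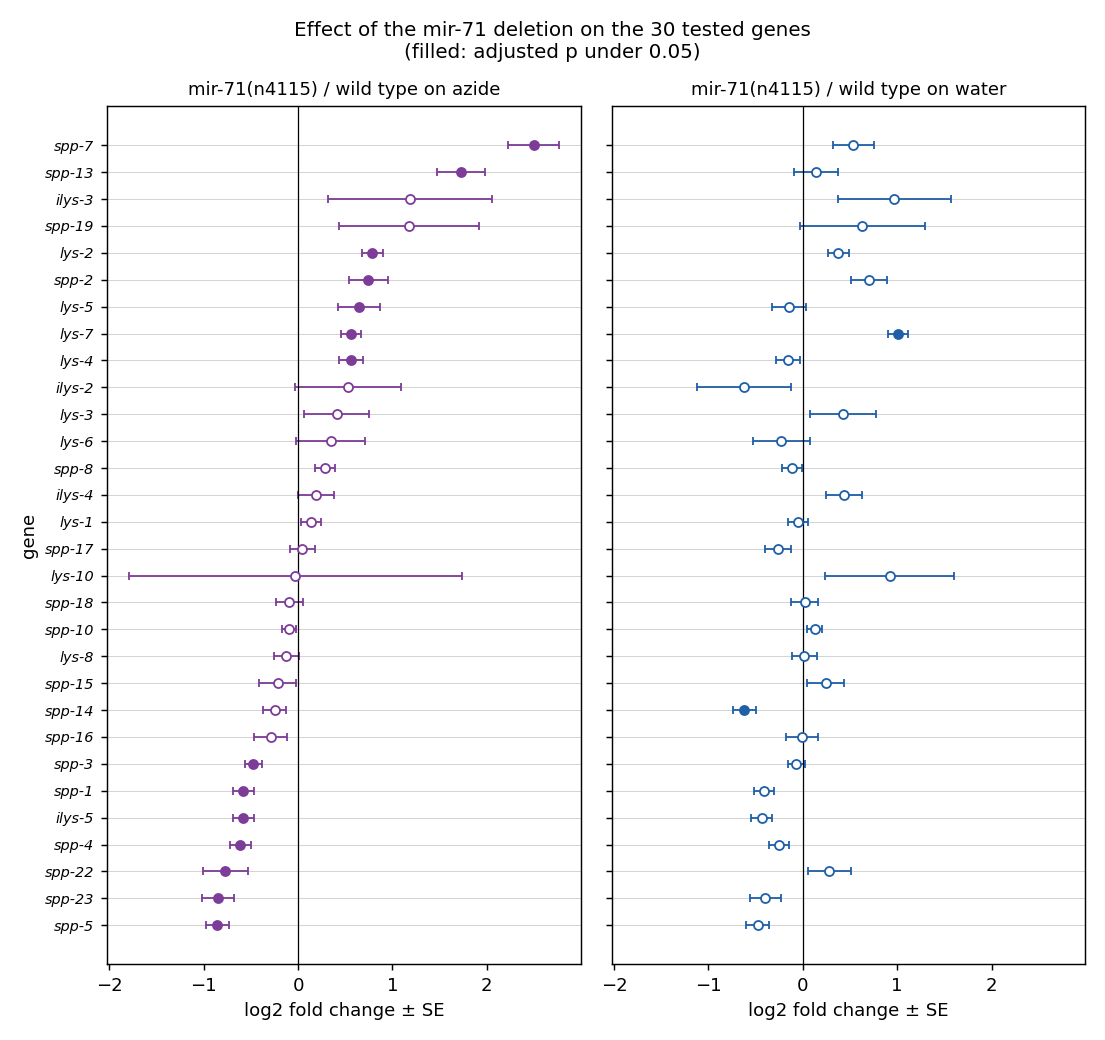
Log2 fold change of *mir-71(n4115)* against wild type with its SE (x axes) for the 30 tested genes (y axis, ordered by the value on azide), on azide at left and on water at right, with filled points for adjusted p under 0.05. On azide 7 points are filled on either side of 0, and on water only *lys-7* above and *spp-14* below 0 are filled.

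On water, 2 members passed the test for loss of miR-71. *lys-7* rose 2.01-fold in *mir-71(n4115)*, with 114, 109 and 124 CPM against 63.3, 50.7 and 58.1 CPM in wild type, a log2 fold change of 1.01 ± 0.11 (adjusted p = 0.00038) that held under all 20 alternatives. In the edgeR fit to all 12 libraries, *lys-7* was the only member called for the deletion on both media in one direction. Its azide effects, -0.19 in *mir-71(n4115)* and 0.26 in wild type, differed by -0.45 ± 0.15 with an adjusted p of 0.0731 (edgeR interaction). That difference was called under 3 of the 19 alternatives. *spp-14*, a highly expressed saposin-like gene of chromosome X (7725980 to 7726340, plus strand), was lower by a log2 fold change of -0.62 ± 0.12 (adjusted p = 0.0261). It stood at 402, 424 and 547 CPM in *mir-71(n4115)* on azide and 506, 610.2 and 517 CPM in wild type on azide, against 478, 482 and 467 CPM in *mir-71(n4115)* on water and 809, 666 and 718 CPM in wild type on water. The deletion and wild-type libraries did not overlap on water, but the call was lost without any 1 of those 6 libraries (adjusted p = 0.11, 0.0547 and 0.0896 without *mir-71(n4115)* replicates 1, 2 and 3, and 0.085, 0.0535 and 0.0748 without those of wild type). It was also lost with the replicate number as a block (adjusted p = 0.0538) and with the intestinal markers (0.148) or the ribosomal protein genes held level (log2 fold change -0.37, adjusted p = 0.0551). On azide *spp-14* fell 1.34-fold in wild type, and in *mir-71(n4115)* its adjusted p was 0.779 (edgeR). The wild-type fall was lost with the intestinal markers (log2 fold change -0.08, adjusted p = 0.718) or the ribosomal protein genes held level (-0.17, adjusted p = 0.164).

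Those 2 calls on water, 1 higher and 1 lower of 30 members, compare with 0.744% of all genes higher and 0.758% lower. The next members by adjusted p did not pass, with log2 fold changes of -0.44 for *ilys-5*, -0.48 for *spp-5*, -0.41 for *spp-1*, 0.70 for *spp-2* and 0.38 for *lys-2* and adjusted p between 0.0691 for *ilys-5* and 0.111 for *lys-2* (edgeR). With DESeq2 all of these were called, in the same direction as their calls on azide. Of the 20 alternatives, 4 called *ilys-5* and 3 called each of the others. The members' median was 0.0051, beside -0.0021 over all genes. Without replicate 3 of *mir-71(n4115)* on azide, 3 members were called higher and 4 lower, beside 371 higher and 356 lower of all genes tested. That library enters this contrast only through the shared estimate of the spread and the scaling factors.

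Of the 30 tested members, 24 passed at least 1 of the 5 tests, 21 of them at 5 CPM or more in the group with the highest mean. Azide in wild type alone gave calls for 54.6% of all genes tested, and the share of all genes passing any of the 5 tests was not counted. The 6 members that passed none were *ilys-2*, *ilys-4*, *lys-3*, *lys-8*, *spp-15* and *spp-19*, of which *spp-15* averaged 13.2 to 18.0 CPM and *spp-19* 0.283 to 0.890 CPM. The 5 members that failed the filter on low counts were *spp-6*, *spp-9*, *spp-11*, *spp-12* and *spp-20*, with 16, 15, 15, 39 and 14 counts over all 12 libraries. *spp-12*, a caenopore gene known from pharyngeal neurons, had at most 12 counts in a library, and *spp-9*, a gene repressed by the TGF-beta ligand DBL-1, at most 7. A change in these 5 was not detectable at this depth.

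Other genes of intestinal defence were measured in the same libraries. Of 17 tested intestinal immune effector genes, a list with CUB-like domain, thaumatin-like and antibacterial-factor genes, 10 were higher and 2 lower on azide in *mir-71(n4115)* (median 1.33), and 9 were higher and 2 lower in wild type (median 1.45). *dod-24*, a gene with a CUB-like domain, had azide log2 fold changes of 2.33 ± 0.15 in *mir-71(n4115)* and 2.42 ± 0.15 in wild type, beside the falls of *spp-1* and *ilys-5*. Between genotypes on azide, 5 effectors were higher and 5 lower (median -0.10). Of 18 regulators of intestinal immunity, among them the p38 kinase gene *pmk-1*, the GATA factor gene *elt-2* and the FOXO gene *daf-16*, 3 were higher and 1 lower on azide in *mir-71(n4115)* (median 0.08), and 1 was higher and 7 lower in wild type (median -0.27). *hlh-30*, the TFEB homologue, and *daf-16* passed none of the 5 tests.

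Of 7 tested DAF-16 target genes, 2 were higher and 0 lower on azide in *mir-71(n4115)* (median 0.54), and 4 were higher and 1 lower in wild type (median 0.74). Between genotypes, *dod-3* was the 1 target called on either medium, lower in *mir-71(n4115)* than in wild type, while *lys-7* was higher. Of 10 lysosomal sphingolipid hydrolases, the enzymes that saposins assist in mammals, 1 was higher and 4 lower on azide in *mir-71(n4115)* (median -0.30), and 2 were higher and 2 lower in wild type (median 0.0019). Between genotypes on azide 1 was higher, the alpha-galactosidase gene *gana-1*, and 4 were lower (median -0.27), with *spp-10* at -0.10 and no call.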

How the data were processed

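RNA from whole L4 larvae of 12 samples (4 groups of 3) was poly(A)-selected and sequenced as paired ends. The authors trimmed reads with Cutadapt 1.9.1, used HISAT2 2.0.1 for alignment (build WBcel235) and HTSeq 0.6.1 for counts per gene. No source used here states the strand setting. The counts are whole numbers as deposited. The deposited table also holds FPKM values, which the authors made by dividing each count by a coding length and the library total, and these served only to compare levels between genes. All sample columns were used. The genes, lists and tests were chosen with earlier results of these data known.

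One edgeR model (version 4.0.16, under R 4.3.3) covered the 12 libraries, with group means, TMM scaling and robust quasi-likelihood tests. Genes passing the filter (minimum count 10, total 15) numbered 15048. CPM are TMM-scaled. Benjamini-Hochberg adjustment ran over all genes, at a threshold of 0.05, and tests were two-sided. In simulated data for azide against water in wild type over 15048 genes, 100 genes were changed 4-fold and 100 were changed 2-fold. Of these, 96% and 65% were recovered. In the measured contrast 54.6% of genes were called, so these figures do not give its recovery. Members of at least 5 CPM in their highest group that passed a test are given per library, and at most 5 rises and 5 falls per comparison with SE and adjusted p. Other members are named only to account for them. Alternatives were DESeq2 1.42.0 and its size factors, upper-quartile factors, centring on intestinal markers or on 78 ribosomal protein genes, no filter, the compared groups alone, a replicate block and leaving out each library. No pair of replicate libraries agreed within sampling noise, so each counted once. Reads shared between similar neighbouring genes cannot be assigned with certainty. Chromosome positions are those of the deposited table, and 34 of the 35 spans lie inside the annotated gene of that name.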

Additional observations from a re-analysis of the deposited data

Results flagged for a closer look

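For 3 members the azide effect differed between genotypes by a test of the difference itself (edgeR interaction, *mir-71(n4115)* minus wild type), and all 3 fell less in the deletion. They make up 10.0% of the tested members, near the 10.5% of all genes called in this test (6.67% higher and 3.8% lower). The difference in log2 fold change was 1.96 for *spp-7*, 1.58 for *spp-13* and 0.72 for *lys-4*. For *spp-7* it held under all 19 alternatives, between 1.75 and 2.18. For *spp-13* it was lost in 1 of 19, with ribosomal protein genes held level (adjusted p = 0.0608), and for *lys-4* in 7 of 19. All 3 genes were lowest in the wild-type libraries on azide, the libraries with the highest yolk and adult collagen levels, and the part of developmental stage in these differences was not tested. Differences in the other direction were called for *spp-3* and *spp-22* under 5 of the 19 alternatives each and for *lys-7* under 3. DESeq2 was among them for each gene.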

How the results depend on the processing

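Members were called 58 times over the 5 comparisons, and under 20 alternatives (19 for the interaction) 35 of these calls held throughout, 23 were lost at least once and 0 reversed. Centring on intestinal markers lost 18 calls, centring on ribosomal protein genes 11, upper-quartile factors 1 and DESeq2 size factors 0. For azide in wild type, members called higher numbered 6 with intestinal centring, 6 with ribosomal centring and 5 in the compared groups alone, against 3, and those called lower 10 with intestinal centring, against 16. For azide in *mir-71(n4115)*, 9 were lower with intestinal centring, against 17. For the deletion on water, 3 were higher with ribosomal centring or DESeq2, against 1, and 0 were lower with intestinal or ribosomal centring, 2 in the compared groups alone and 4 with DESeq2, against 1. For the interaction, 1 was higher with ribosomal centring, against 3, and 2 were lower with DESeq2 size factors and 3 with DESeq2, against 0 (5 at an unadjusted p under 0.05). Leaving out 1 library gave 15 to 17 lower and 3 to 3 higher for azide in *mir-71(n4115)*, 13 to 17 lower and 3 to 5 higher for azide in wild type, 6 to 8 lower and 5 to 8 higher for the deletion on azide, 0 to 4 lower and 1 to 3 higher for the deletion on water, and 0 to 3 lower and 2 to 3 higher for the interaction. Over all genes, the deletion on water gave 226 calls, against 690 with DESeq2, 524 with ribosomal centring, 101 with intestinal centring, 389 in the compared groups alone and 76 to 727 leaving out 1 library. The interaction gave 1575, against 2611 with DESeq2, 872 with ribosomal centring, 547 with intestinal centring and 827 to 2906 leaving out 1 library. The deletion on azide gave 5844, against 3311 with intestinal centring, and azide in *mir-71(n4115)* gave 3600, against 1636 in the compared groups alone and 2176 to 4670 leaving out 1 library. The percent of these calls that were higher was 51.6% for azide in *mir-71(n4115)* (78.3% with intestinal and 65.0% with ribosomal centring), 50.4% for azide in wild type (71.1% with intestinal and 68.3% with ribosomal centring, 39.8% with upper-quartile factors), 51.7% for the deletion on azide (68.8% with ribosomal centring and 67.7% with upper-quartile factors), 49.6% for the deletion on water (91.8% with ribosomal centring and 60.2% with upper-quartile factors) and 63.7% for the interaction (76.1% with intestinal centring, 78.4% with upper-quartile factors and 52.4% with DESeq2 size factors). The percent higher for the interaction was 48.3% with DESeq2 and 44.1% without replicate 1 of *mir-71(n4115)* on azide. Same-numbered libraries of different groups did not deviate together (correlations -0.107 to 0.0824 over 12 pairs, and -0.171 to 0.145 over the 24 differently numbered pairs). No pairing by number was thus detected, but this check cannot exclude that same-numbered libraries were handled together. A replicate block lost 2 members' calls, *spp-14* for the deletion on water and *lys-5* for the deletion on azide, and changed no other member call that had been made. With that block, members lower for the deletion on water numbered 0, against 1, and the other counts stayed within 1.5 times. Members under 1 CPM were limited by depth.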
